A study of Mus musculus with 8 samples.

Results

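The Egr, Ier and Nr4a immediate early genes, with Dusp1 and Zfp36, are 10 genes chosen by name as immediate early genes outside the AP-1 family. They were read on Affymetrix mouse arrays hybridised with RNA from bulge cells, the keratinocytes of the hair follicle niche that holds its stem cells. Of the 10, 9 were named on the arrays, by 14 probe sets among 45037 that are not controls, and Zfp36, which encodes the mRNA-decay protein tristetraprolin, was not analysed here. One array was run for each of 4 mice labelled G9a cKO and 4 mice labelled G9a WT. The cKO mice lack the histone methyltransferase G9a conditionally, while the WT mice keep it. All 8 animals shared the same treatment of shaved back skin, once a week for 6 weeks from an age of 8 weeks, with 200 µl each of DMBA (0.25 mg/ml), a mutagen, and TPA (0.02 mg/ml), a tumour promoter that activates protein kinase C. The labels give an age of 15 weeks for both genotypes. No untreated skin was part of the comparison. Neither the promoter driving the deletion nor the isolation of the bulge cells is described in the labels.

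Immediate early genes are switched on within minutes of a stimulus, without new protein synthesis, by factors that already sit in the cell. ERK and other kinases phosphorylate ELK factors at serum response elements, which SRF binds through the CArG box, and CREB at cAMP response elements. In skin these genes respond to growth factors, to wounding, to TPA and also to the dissociation of tissue into single cells. Among the members, EGR1, EGR2 and EGR3 are zinc finger transcription factors, NR4A1 and NR4A2 are orphan nuclear receptors, and IER2, IER3 and IER5 are small regulatory proteins. DUSP1, a phosphatase that inactivates MAP kinases, and ZFP36, which destabilises AU-rich mRNAs, act as feedback inhibitors.

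Promoter sequence from RefSeq (GRCm38.p6) was at hand for 7 of the 10 genes, and stretches that carry such elements are shown for 4 measured members. They do not hold every match: the window used for Egr2 has another TGACG at -111 to -107, and a further start window of Egr2 has another CArG box. The 250 bases before each start were searched on both strands. Capitals mark the CArG box and TGACG or its reverse complement, the core of the cAMP response element, which is also contained in the full element TGACGTCA.
Egr2, chr10:67537793-67537822, plus strand, positions -76 to -47 from 1 of its 5 starts: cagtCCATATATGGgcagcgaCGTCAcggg
Nr4a1, chr15:101266606-101266815, plus strand, positions -240 to -31: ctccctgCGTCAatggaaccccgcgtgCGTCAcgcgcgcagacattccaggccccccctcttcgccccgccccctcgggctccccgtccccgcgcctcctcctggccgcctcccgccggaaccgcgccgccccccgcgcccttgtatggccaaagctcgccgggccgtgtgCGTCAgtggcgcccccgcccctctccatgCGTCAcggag
Nr4a2, chr2:57124094-57124213, minus strand, positions -210 to -91: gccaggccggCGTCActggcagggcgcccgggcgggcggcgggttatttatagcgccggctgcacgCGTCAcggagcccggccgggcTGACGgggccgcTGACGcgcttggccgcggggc
Dusp1, chr17:26508592-26508672, minus strand, positions -200 to -120: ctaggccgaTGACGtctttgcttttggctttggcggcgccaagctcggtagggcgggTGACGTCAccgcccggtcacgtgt

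A CArG box was found in 4 of the 5 start windows of Egr2 and in the window of Zfp36 (positions -58 to -49). Several of these Egr2 windows overlap and hold the same box, so they do not count separately. By gene, a CArG box was found in 2 of 7, against 1.62% of all genes. It occurs in 1.47% of all 32851 windows of that length. The full cAMP response element was found in Dusp1 alone among these 7 genes, and in 1.55% of all windows. The core TGACG was found in Egr2, Nr4a1, Nr4a2 and Dusp1, that is in 4 of 7 genes, against 19.8% of the 27025 genes in the table. Nr4a1 and Nr4a2 each held 4 matches to it. Matches to the EGR site GCGNGGGCG lay in the windows of Nr4a1, Nr4a2 and Zfp36 (5.33% of all genes). ETS sites (CCGGAA) were matched in Egr2, Nr4a1 and Zfp36 (13.6% of all genes). The windows of Ier3 and Ier5 held none of these elements. NBRE sites (AAAGGTCA), bound by NR4A monomers, and TPA response elements (TGANTCA), bound by AP-1, had no match in the 7 genes. A match is a run of letters, not a shown binding site.

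Values are log2 expression from RMA, so a difference of 1 is a doubling, and adjusted p-values are limma's with Benjamini-Hochberg adjustment and a threshold of 0.05. Deposited values ran from 3.09 to 13.1, with array medians of 5.87 to 5.95. Signals of different probe sets do not compare as amounts of RNA, so tests are within a probe set, and a place above or below the median probe set says only whether a signal was bright or dim. The targeted gene, Ehmt2, was 9.27-fold lower in cKO by probe set 1460692_PM_at and level by 1426888_PM_at (log2 change -0.0012), and the labels do not place the deletion relative to them. All 13 bulge marker genes measured, such as Krt15, Cd34 and Lhx2, lay above the median probe set (5.91), at means of 8.31 to 12.6. Of the markers of other cells, 11 of 12 of macrophages and dendritic cells, 5 of 6 of T cells, 7 of 8 of fibroblasts and 6 of 7 of endothelium lay below that median. Melanocyte markers differed, with 2 of 7 below it (Tyr and Kit) and the brightest, Mitf, at 9.51. Among the brighter exceptions, Thy1, which keratinocytes can also express, rose in cKO (limma adjusted p = 0.0251, and from 0.0599 to 0.0768 without any 1 of cKO replicates 2 and 3 or WT replicates 1, 2 and 3), and the collagen gene Col1a1 fell (limma adjusted p = 0.00100). Mixed cells and RNA per cell cannot be told apart in such bulk samples. WT replicate 4 stood apart from the other WT arrays in the members, so each member and each gene list is also given without it. This array was picked for its low member values, so leaving it out raises the WT means of the members by construction. The adjusted p-values and counts without it describe the members and related genes, and are no test of them. Without WT replicate 4 the calls of Thy1 and Col1a1 held (limma adjusted p = 0.0274 and 0.00175).

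None of the 9 measured members passed the threshold in the comparison of G9a cKO with G9a WT, where 0.836% of 17097 genes were called lower and 2.76% were called in either direction. The values of all 9 lay lower in cKO, with a median log2 change of -0.25, while 48.5% of all genes lay below 0 and their median was 0.0027. At an unadjusted p under 0.05, 6 of the 9 were lower, against 5.57% of all genes. By probe set, 1 of 14 was past the threshold, the second one of Egr2, where 0.591% of all probe sets were called lower and 1.78% in either direction. Without WT replicate 4, 7 of the 9 members fell, namely all but Egr3 and Ier5, and 1.72% of all genes were called lower; of the 14 probe sets, 10 fell, against 1.84% of all probe sets. All cKO values lay below all WT values in 4 of the 14 probe sets, against 3.19% of all. The direction and the counts of these genes were known when they were chosen, so they are a description of the genes and no independent support.

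**Figure D1:**
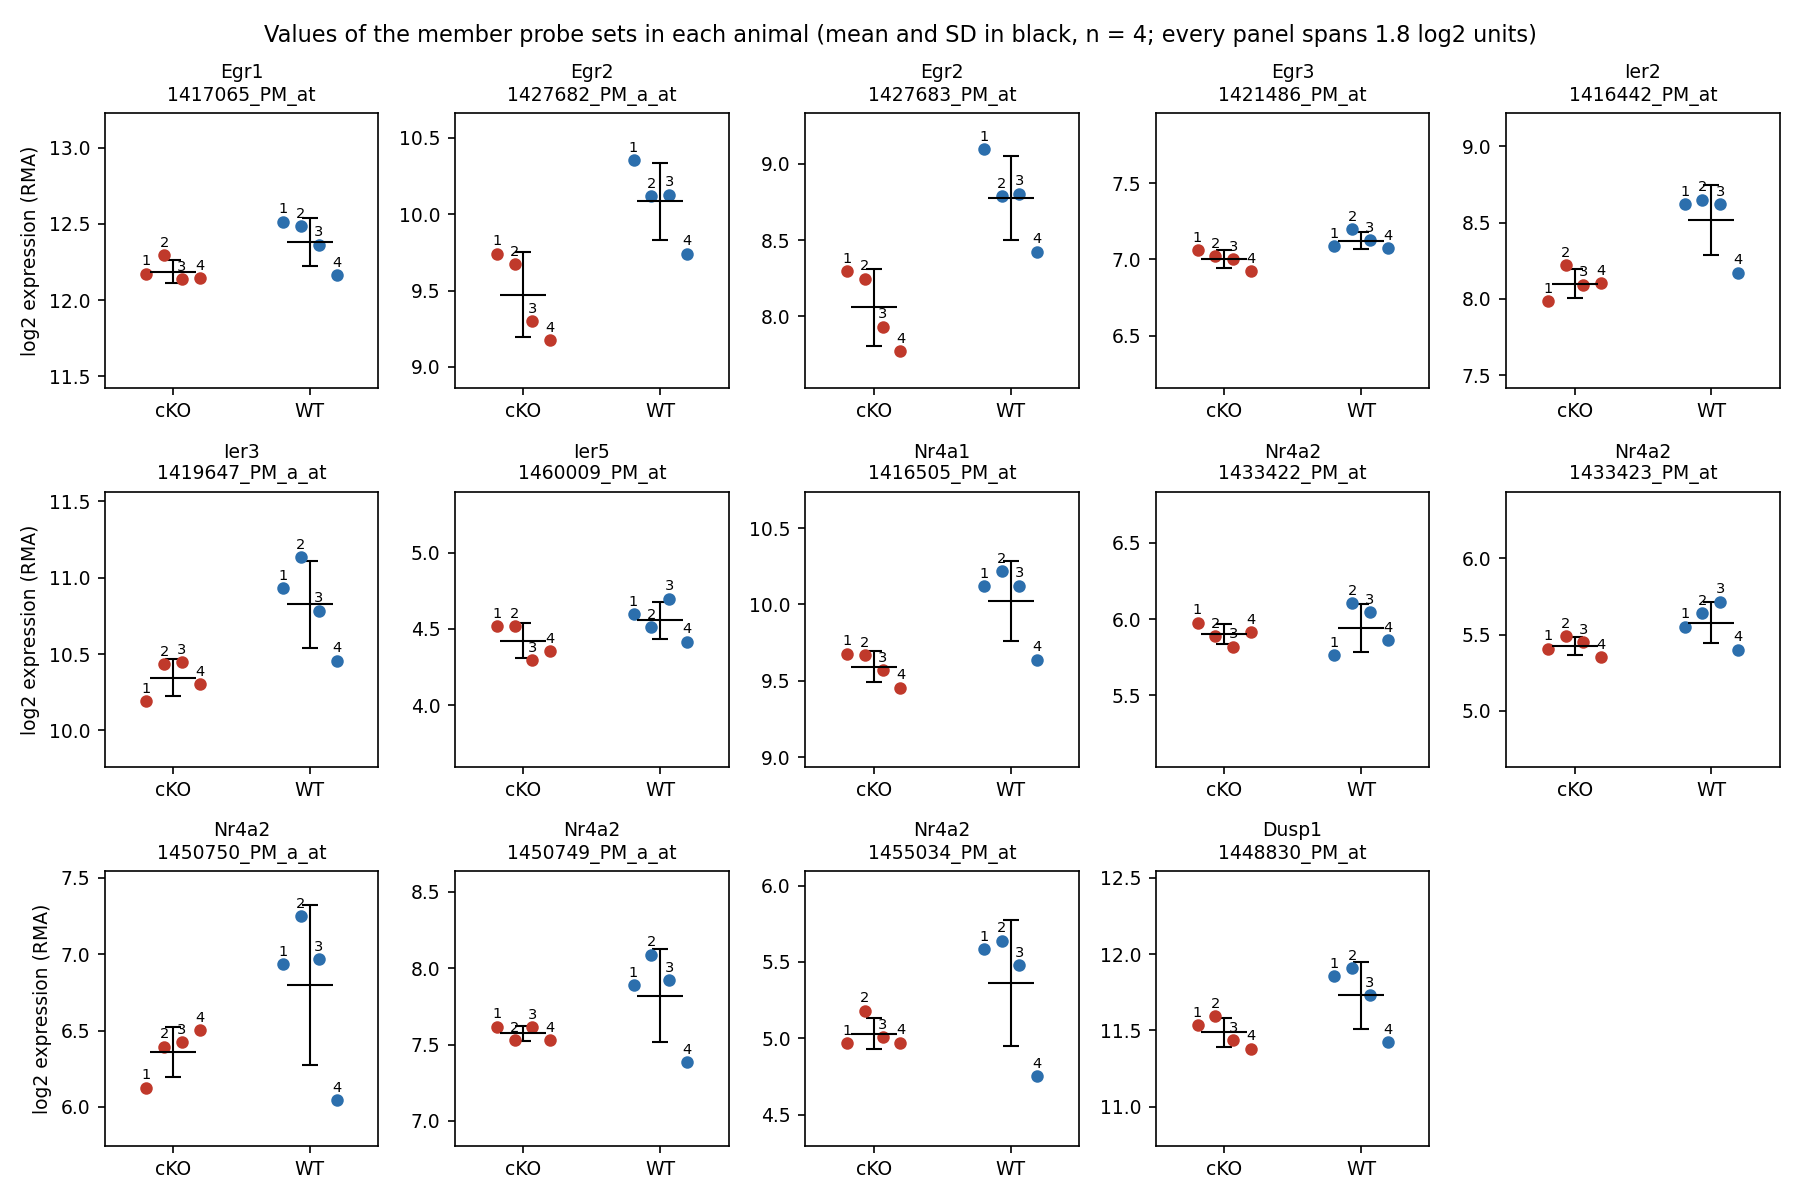
Log2 expression (RMA) of the 14 member probe sets in each animal, cKO in red and WT in blue, with the replicate number at each point and the mean and SD (n = 4) in black; each panel spans 1.8 log2 units. WT replicate 4 is the lowest WT point in 13 of the 14 panels, against 27.1% of all probe sets.

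Egr2 had the largest difference of the members. Its probe set 1427682_PM_a_at read 9.74, 9.67, 9.30 and 9.17 in cKO replicates 1 to 4, and 10.35, 10.12, 10.13 and 9.74 in WT replicates 1 to 4. The groups did not overlap, but only just, since the highest cKO value was 9.7411 and the lowest WT value 9.7429. The mean was 9.47 ± 0.28 in cKO and 10.09 ± 0.25 in WT (SD, n = 4 each), which is 1.53-fold lower (log2 change -0.61, SE 0.15, limma adjusted p = 0.0609). Probe set 1427683_PM_at was designed on the same transcript record and gave the same order of the groups. It read 8.29, 8.25, 7.93 and 7.77 in cKO against 9.10, 8.79, 8.80 and 8.43 in WT, again without overlap. By this probe set Egr2 fell 1.64-fold (log2 change -0.72 with an SE of 0.15; over the 45037 probe sets, limma adjusted p = 0.0387). In both probe sets cKO replicates 3 and 4 were the lowest arrays, and the spread within cKO was as wide as within WT. Without WT replicate 4 the changes were -0.73 and -0.83 (limma adjusted p = 0.0159 over genes and 0.00919 over probe sets). The call of the second probe set was lost without any 1 of cKO replicates 2, 3 and 4 or WT replicates 1, 2 and 3, where its adjusted p by limma ran from 0.0680 to 0.119.

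Egr1, an early target of ERK signalling, read 12.17, 12.29, 12.14 and 12.14 in cKO and 12.51, 12.48, 12.36 and 12.16 in WT. The cKO arrays lay below WT replicates 1 to 3, while WT replicate 4 lay among them. The log2 change was -0.19 (SE 0.070, limma adjusted p = 0.231), and -0.27 without WT replicate 4 (limma adjusted p = 0.0148). Egr3, the EGR member with the smallest difference, read 7.06, 7.02, 7.00 and 6.92 in cKO and 7.09, 7.20, 7.13 and 7.07 in WT. These values did not overlap, yet they differed by little, with a log2 change of -0.12 (SE 0.057, limma adjusted p = 0.399). Leaving out WT replicate 4 made Egr3 no clearer (-0.14, limma adjusted p = 0.287). Within the EGR family the log2 changes therefore ran from -0.72 to -0.12 over 4 probe sets, and the differences between family members were not tested.

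Nr4a1, the orphan receptor also known as NUR77, read 9.68, 9.67, 9.57 and 9.46 in cKO and 10.12, 10.22, 10.12 and 9.64 in WT. WT replicates 1 to 3 were closely grouped above every cKO array, and WT replicate 4 fell inside the cKO range. The mean was 9.59 ± 0.10 against 10.03 ± 0.26 (SD, n = 4 each), or 1.35-fold lower (log2 change -0.43, SE 0.11, limma adjusted p = 0.0843). Without WT replicate 4 Nr4a1 fell by 0.56 on the log2 scale (limma adjusted p = 0.00159), the lowest adjusted p of the 9 members in that fit. Since that array was picked for its low member values, this p and its rank are a description and no test.

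Nr4a2, its paralog known as NURR1, was read by 5 probe sets that all lay lower in cKO but by different sizes. The brightest, 1450749_PM_a_at, read 7.62, 7.53, 7.61 and 7.53 in cKO and 7.89, 8.09, 7.92 and 7.39 in WT. WT replicate 4 was here the lowest of all 8 arrays, below every cKO animal, and the same held for 1450750_PM_a_at and 1455034_PM_at. The log2 change was -0.25 by the brightest probe set (SE 0.13, limma adjusted p = 0.441). It was -0.44 and -0.33 by 1450750_PM_a_at and 1455034_PM_at, and -0.15 and -0.044 by 1433423_PM_at and 1433422_PM_at, all with adjusted p from 0.408 to 0.909 over all probe sets. Probe set 1450750_PM_a_at had the widest WT spread of the 14, at 6.93, 7.25, 6.97 and 6.04, against 6.13, 6.39, 6.42 and 6.50 in cKO. Without WT replicate 4, 3 of the 5 fell, by 0.39, 0.69 and 0.54 (over all probe sets, limma adjusted p = 0.0136, 0.00851 and 0.00416). Probe set 1433422_PM_at, whose WT replicate 1 was its lowest array, did not fall there either (-0.071). Nr4a3, the third NR4A receptor gene, was not a member and read 6.69 ± 0.15 against 6.99 ± 0.21 in WT (limma adjusted p = 0.237, and 0.0280 without WT replicate 4).

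Ier3, also known as IEX-1, a regulator of cell survival and of ERK signalling, read 10.19, 10.43, 10.45 and 10.30 in cKO. In WT it read 10.93, 11.13, 10.78 and 10.46. The groups did not overlap, although the lowest WT array, replicate 4, lay next to the highest cKO array, replicate 3. Ier3 was 1.40-fold lower in cKO (log2 change -0.48, SE 0.12, limma adjusted p = 0.0754), and it fell by 0.61 without WT replicate 4 (limma adjusted p = 0.00515). Ier2, a nuclear protein induced by growth factors, read 7.99, 8.22, 8.09 and 8.10 in cKO and 8.62, 8.65, 8.62 and 8.17 in WT. WT replicates 1 to 3 were almost equal, and WT replicate 4 lay below cKO replicate 2. The log2 change was -0.42 (SE 0.11, limma adjusted p = 0.0746), and Ier2 fell by 0.53 without WT replicate 4 (limma adjusted p = 0.00213). Ier5, an activator of the heat shock factor HSF1, was dim, below the median probe set on every array. Its values of 4.52, 4.52, 4.29 and 4.35 in cKO and 4.60, 4.51, 4.70 and 4.42 in WT overlapped (log2 change -0.13, SE 0.071, limma adjusted p = 0.466), and it did not pass without WT replicate 4 either (-0.18, limma adjusted p = 0.209). RMA compresses differences at such low signal.

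Dusp1, the phosphatase gene of the feedback arm, read 11.54, 11.59, 11.44 and 11.38 in cKO and 11.85, 11.91, 11.73 and 11.42 in WT. As with Egr1 and Nr4a1, every cKO array was below WT replicates 1 to 3, and WT replicate 4 was among the cKO arrays. The log2 change was -0.24 (SE 0.094, limma adjusted p = 0.271), and it fell by 0.35 without WT replicate 4 (limma adjusted p = 0.0117). Of the 9 members, 5 had a larger difference than this phosphatase gene.

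**Figure D2:**
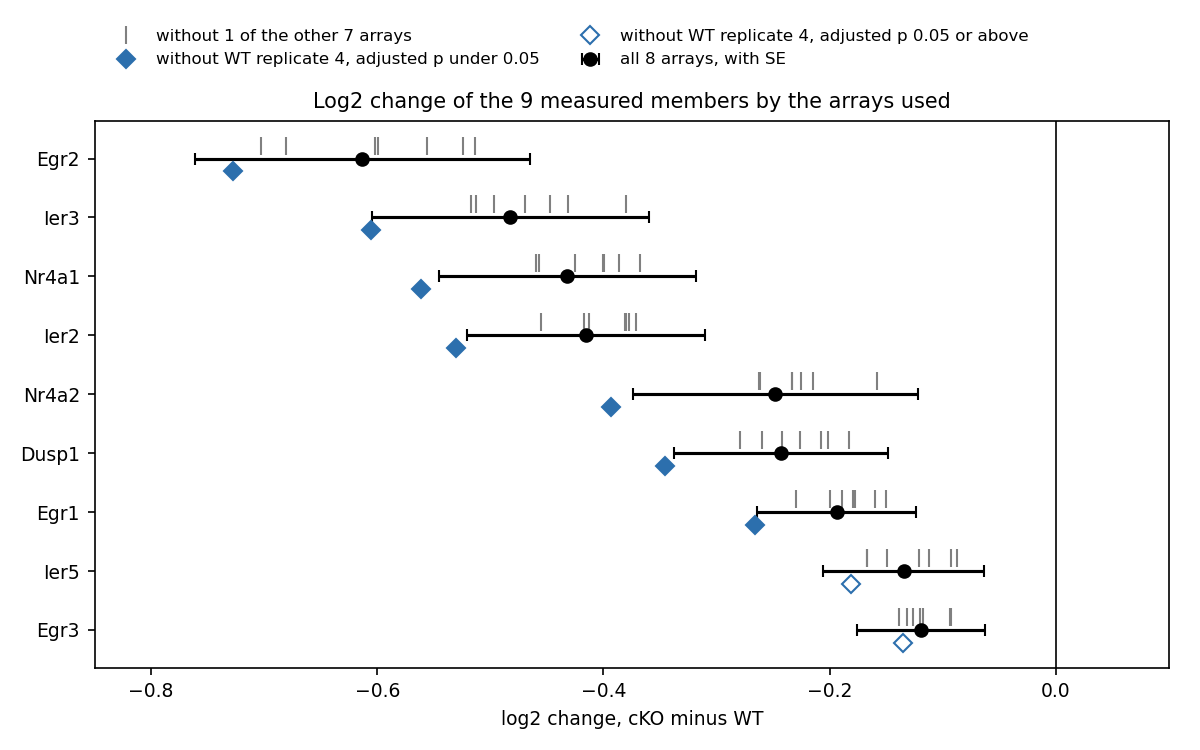
Log2 change (cKO minus WT) of the 9 measured members with all 8 arrays (black, bars are the SE), without 1 of the other 7 arrays (grey ticks) and without WT replicate 4 (diamonds, filled where the adjusted p is under 0.05). Every value is below 0, and without WT replicate 4 the change is past the threshold for all but Ier5 and Egr3. That array was picked for its low member values, so the diamonds are a description and no test.

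The members varied together between animals. All cKO arrays lay below all WT arrays in 3 of the 9 genes (Egr2, Egr3 and Ier3), against 3.09% of all genes. Against WT replicates 1 to 3 alone, chosen after the values were seen, all cKO arrays were lower in 8 of the 9, with Ier5 the exception, against 6.78% of all genes. WT replicate 4 was the lowest WT array in 9 of 9 genes, against 23.8% of all genes. WT replicate 2 was the highest array in 6 of the 9, WT replicate 1 in 2 (Egr1 and Egr2) and WT replicate 3 in 1 (Ier5). Among the cKO arrays, replicate 4 was lowest in 5 of 9 and replicates 1 and 2 were highest in 4 each.

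The mean deviation of the 9 genes from their mean over all arrays summarised this order. It was -0.12, -0.074, -0.19 and -0.25 in cKO replicates 1 to 4, and 0.26, 0.30, 0.21 and -0.13 in WT replicates 1 to 4. WT replicate 4 was thus level with cKO replicate 1, while the other WT animals stood above all cKO animals. With genotype means taken out, the correlation of each member with the mean of the other 8 over the 8 arrays was 0.98 for Dusp1 and Nr4a1 and 0.93 for Egr1. It was lowest for Egr3 and Ier5, at 0.60 and 0.58. These coefficients describe the same 8 arrays, in which WT replicate 4 lies farthest out, and have no test.

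Genes outside the list were ranked by how closely they followed the members. Among 7502 genes with a mean of at least 7, the 6 most alike by Pearson r over the 8 arrays, with genotype means taken out, were Samd8 (0.99), Phf13, Pim3, Slc6a8, Csrnp1 and Dusp7 (0.97 to 0.98). High coefficients follow from picking the top of so many genes over 8 arrays, in which WT replicate 4 lies farthest out in the members. They have no test. Pim3 encodes a serine/threonine kinase, Csrnp1 a nuclear protein and Dusp7 an ERK phosphatase. None of the 6 passed between the genotypes, and without WT replicate 4 Pim3, Csrnp1 and Dusp7 fell (limma adjusted p = 0.0254, 0.0278 and 0.00739). In that fit 1.72% of all genes were called lower. The 6 were picked for following the members, in which WT replicate 4 was low, so these calls without it are no independent support. With all arrays Dusp7 had the lowest p, at 9.31 ± 0.12 in cKO and 9.67 ± 0.27 in WT (SD, n = 4 each, limma adjusted p = 0.187). WT replicate 4 was the lowest of the 8 arrays in 3 of them (Samd8, Phf13 and Slc6a8) and cKO replicate 4 in the other 3.

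The rest of the immediate early programme showed a similar order of arrays. Of the 10 AP-1 genes, the closest relatives by regulation, none passed and 8 lay below 0, with a median log2 change of -0.21. Junb read 8.82 ± 0.12 against 9.33 ± 0.30 in WT (limma adjusted p = 0.0764). The FOS-family gene Fosl1 averaged 8.00 ± 0.16 against 8.56 ± 0.34 (limma adjusted p = 0.0909). Of 23 further immediate early genes, none passed and 23 lay below 0, with a median of -0.25. Their lowest p-values were those of Klf6, a Krüppel-like factor (10.97 ± 0.10 and 11.30 ± 0.22, limma adjusted p = 0.115), and Btg2, an antiproliferative gene (10.32 ± 0.19 and 10.77 ± 0.29, limma adjusted p = 0.137). With all arrays 48.5% of all genes lay below 0. Without WT replicate 4, 6 of the 10 AP-1 genes and 12 of these 23 fell, beside 7 of the 9 members and 1.72% of all genes. WT replicate 4 was left out for its low member values and was low in these lists too. These counts are therefore no independent support. The array means repeated the pattern: WT replicate 4 read -0.13 for AP-1 and -0.23 for the further genes, against 0.13 or above in the other WT arrays. Of 9 paralogs of the members, such as Nr4a3, Zfp36l1 and Dusp6, none passed, 8 lay below 0 (median -0.11) and 2 fell without WT replicate 4 (Nr4a3 and Dusp6). Zfp36l1, an mRNA-decay factor of the ZFP36 family, read 11.18 ± 0.05 and 11.28 ± 0.05 (limma adjusted p = 0.238).

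**Figure D3:**
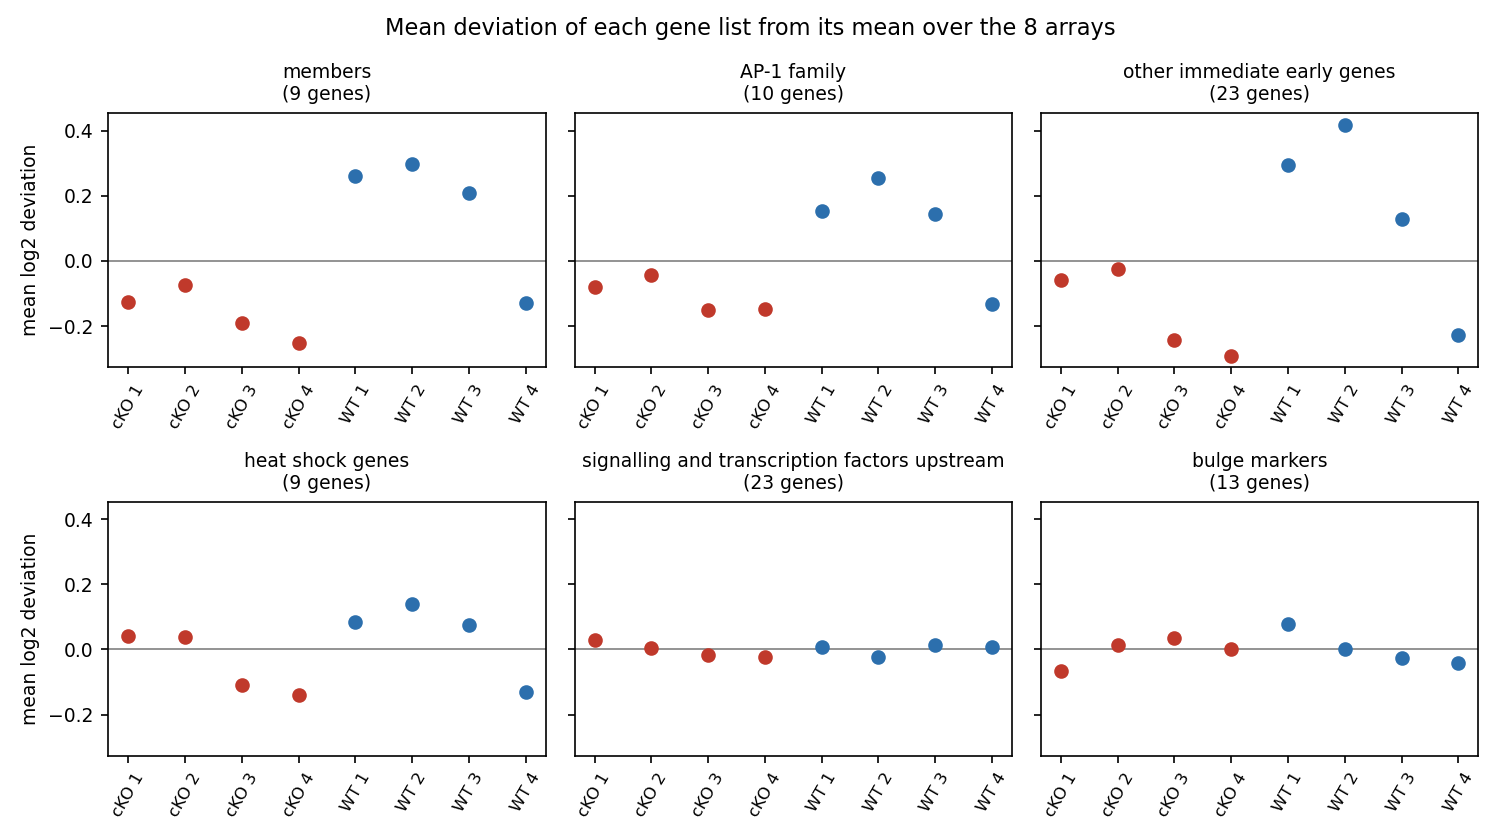
Mean deviation (log2) of 6 gene lists from their mean over the 8 arrays, one point for each animal, cKO in red and WT in blue. WT replicate 4 lies with the cKO arrays in the member, AP-1 and further immediate early lists and is low in the heat shock list (-0.13), while the upstream list stays within -0.024 to 0.031.

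Transcripts of the signalling chain above these genes showed no such order. Of 23 measured kinases and transcription factors that act upstream, none passed (Map2k3 alone fell without WT replicate 4, limma adjusted p = 0.0181), 11 lay below 0, and the median log2 change was 0.013. The lowest p-values were those of Rps6ka5, the kinase MSK1 (6.14 ± 0.13 for cKO and 5.90 ± 0.07 for WT by SD, limma adjusted p = 0.125), and Map2k3, an activator of p38 (9.48 ± 0.06 and 9.68 ± 0.15, limma adjusted p = 0.236). Arrays of RNA do not measure the phosphorylation through which this chain works. Of 9 partners of the members, among them the EGR co-repressor gene Nab1, none passed, with or without WT replicate 4, and 4 lay below 0 (median 0.033). Rxra, the partner of NR4A receptors, read 10.48 ± 0.06 against 10.28 ± 0.12 in WT (limma adjusted p = 0.146), and Ywhab 11.49 ± 0.04 and 11.44 ± 0.04 (limma adjusted p = 0.581).

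Genes that the members act on were mostly not called. Of 8 measured EGR targets, 1 fell, F3, the gene of tissue factor, with 4.20, 4.25, 4.33 and 4.25 in cKO and 4.52, 4.59, 4.61 and 4.59 in WT. The fall was 1.25-fold at a dim level (limma adjusted p = 0.00215), and unlike the members WT replicate 4 stood with the other WT arrays (limma adjusted p = 0.00491 without it). The other 7 did not pass, and the median of the list was -0.15. Without WT replicate 4 the count was 2, as the adhesion molecule gene Icam1 also fell (limma adjusted p = 0.0280). The count was also 2 with quantile normalization, with arrays at a common median and with array weights. F3 was called in each of these fits, and the other gene, not named here, need not be Icam1. Id3, a dominant negative helix-loop-helix factor, was nearest to the threshold with all arrays (10.24 ± 0.11 against 10.52 ± 0.09 in WT, limma adjusted p = 0.0527). Of 13 mRNAs known as ZFP36 targets, 1 fell, Ptgs2, which encodes the prostaglandin synthase COX-2. It read 4.13, 4.16, 4.33 and 4.18 in cKO and 5.51, 5.48, 5.06 and 4.38 in WT, so WT replicate 4 was again nearest to the cKO arrays (1.88-fold lower, limma adjusted p = 0.0471). This call held without WT replicate 4 and was lost without any 1 of the other 7 arrays, at limma adjusted p from 0.0870 to 0.139. Ptgs2 was dim, below the median probe set on every array. All 13 lay below 0, against 48.5% of all genes, with a median of -0.083. Most of the 13 were dim: 4 remained when dim probe sets were left out, and Ptgs2 was not among them. Levels of mRNA do not separate synthesis from decay.

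**Figure D4:**
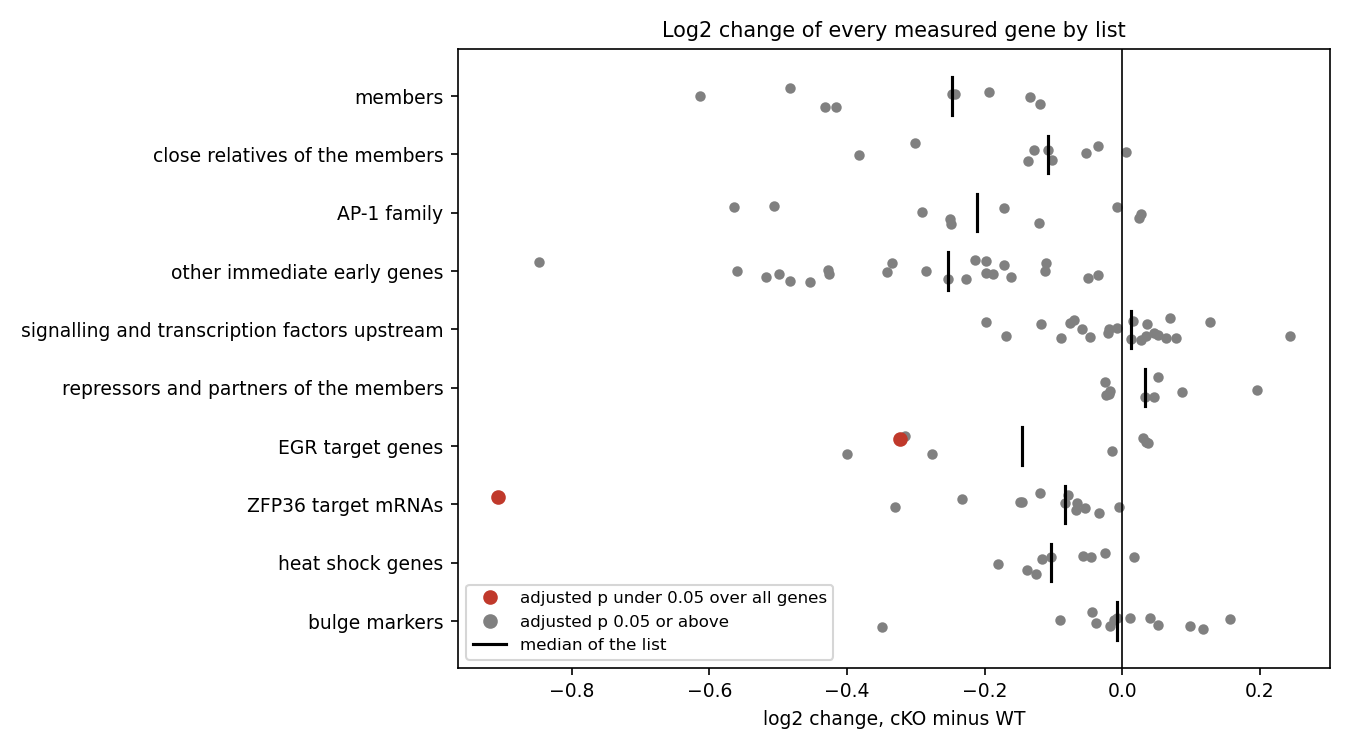
Log2 change (cKO minus WT) of every measured gene by list, with the list median as a black bar and genes past the threshold over all genes in red. The medians are -0.25 for the members and for further immediate early genes, -0.21 for AP-1 and 0.013 for upstream genes; the 2 red points are F3 and Ptgs2.

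Heat shock genes, which also respond to tissue dissociation, moved with the members in part. None of 9 passed, with or without WT replicate 4, 8 lay below 0 and the median log2 change was -0.10. Hsp90aa1 read 10.65 ± 0.04 against 10.79 ± 0.13 in WT (limma adjusted p = 0.361), and Dnajb1 10.92 ± 0.12 and 11.04 ± 0.13 (limma adjusted p = 0.576). Their array mean was 0.041, 0.037, -0.11 and -0.14 in cKO replicates 1 to 4 and 0.085, 0.14, 0.077 and -0.13 in WT replicates 1 to 4. The arrays low in the members were thus also low here, except that cKO replicates 1 and 2 were not. The part of handling or dissociation in the difference of the members was not tested. Of the 13 bulge markers none passed and 7 lay below 0, with array means of -0.065 to 0.079 and -0.043 in WT replicate 4. The lowest p was that of Nfatc1, a factor of bulge quiescence, at 10.16 ± 0.14 against 10.50 ± 0.14 in WT (limma adjusted p = 0.0567), and it fell without WT replicate 4 (limma adjusted p = 0.0391). The keratin gene Krt15 came next, with 12.36 ± 0.03 in cKO and 12.26 ± 0.06 in WT, all cKO arrays above all WT arrays (limma adjusted p = 0.202). The summed linear signal of the macrophage and dendritic cell markers was 324 to 352 in cKO and 322 to 400 in WT, that of the T cell markers 304 to 371 and 266 to 291. Thy1 is the T cell marker that rose, while the other 5 had log2 changes of -0.073 to 0.027. For fibroblast markers it was 259 to 283 in cKO and 324 to 342 in WT, led by Col1a1, the only one called. As a list the 8 fibroblast markers did not fall: 4 lay below 0 and the median log2 change was 0.0003. For endothelial markers the summed signal was 208 to 230 and 200 to 237, and for melanocyte markers 983 to 1203 and 1049 to 1341. No macrophage and dendritic cell, endothelial or melanocyte marker passed with all arrays or without WT replicate 4. With array weights 1 of the 12 macrophage and dendritic cell markers was called lower, where 249 of 17097 genes were called lower. The part of these cells in the difference of the members was not tested.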

How the data were processed

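Expression was profiled on 1 array for each of 8 animals, 25 ng of total RNA being amplified over 17 cycles, per the labels' protocols. The authors deposited log2 values per probe set, and the submitters' processing notes name RMA without version or settings. They were used without further normalization. Of 45141 probe sets, 104 controls were left out, 28898 had 1 gene symbol in the platform annotation, 551 several and 15692 none. Each of 17097 genes was tested by its probe set with the highest mean, and all 45037 probe sets were tested in a second fit, with limma 3.58.1 (lmFit, eBayes with trend) in R 4.3.3, two-sided, without covariates; the script was tested on simulated data. The titles name animals and replicates, so p-values measure the spread between animals; 4 arrays a group limit the precision. Alternatives were quantile normalization, centring, a filter on dim probe sets (lowest 40%), eBayes without trend, array weights, averaged probe sets, the replicate number as a block and leaving out each array. Named genes are the members, Ehmt2, called genes of each list (or the 2 lowest p) and the 6 most alike; Dusp6, Nab1, Id3, Icam1, Cd34 and Lhx2 are examples outside it, and low-p markers of other cells are given by list only. Members, lists and tests were chosen with earlier results of these data known. Promoter sequences are RefSeq's, and figures were drawn with matplotlib 3.10.9.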

Additional observations from a re-analysis of the deposited data

Results flagged for a closer look

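The 14 member probe sets give 28 groups of 4 values, 1 for each genotype, and 2 of the 28 held a value far from its group. In both it was WT replicate 4, which is in only the 14 WT groups, and it was the lowest. Chance alone sets about 1 in 20 such groups apart. That rate is for independent groups. These share the same 8 arrays and varied together, so 2 of 28 cannot be judged by it. In Ier2 WT replicate 4 read 8.17 while the other 3 WT arrays read 8.62 to 8.65. In Nr4a1 it read 9.64 against 10.12 to 10.22.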

How the results depend on the processing

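All 9 members lay lower in cKO under each alternative run; Ier5 was not tested without dim probe sets. The 472 genes called became 732 with array weights and 268 with the replicate number as a block, and 258 to 796 without 1 array (258 without cKO replicate 2, 262 without WT replicate 3, 296 without cKO replicate 4, 304 without WT replicate 1 and 796 without WT replicate 4). The 802 probe sets called became 1457 and 454 in the same fits, and 419 to 1691 without 1 array. Members called, 0 at first (6 at an unadjusted p under 0.05), numbered 4 with array weights, 1 with arrays at a common median (Egr2), 1 with the probe sets of each gene averaged (Egr2), 2 with the replicate block (Egr2 and Nr4a1) and 0 to 7 without 1 array. Member probe sets called, 1 at first, numbered 5 with array weights, 0 without the eBayes trend (second probe set of Egr2, limma adjusted p = 0.0530), 3 with the replicate block, and 0 to 10 without 1 array. The highest count in each of these ranges is the one without WT replicate 4. Same-numbered arrays did not deviate together (correlations across genes from -0.53 to 0.028). With so few arrays this does not settle whether the numbers pair animals, and the labels do not say. Probe set 1433422_PM_at of Nr4a2 had changes from -0.10 to 0.0090 and keeps no direction. Ptgs2 was not past the threshold without the eBayes trend (limma adjusted p = 0.0630) or with the replicate block (0.0690). It was not tested without dim probe sets. Of 134 member changes under alternatives, 118 stayed on their side of the threshold and 16 passed it.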
